A study of Mus musculus with 76 samples.

Results

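Right ventricular (RV) RNA of sham-treated C57Bl/6J female mice on normal diet (ND) was compared between collection at 640 d and at 530 d. The comparison took 9 of the 76 libraries in the count table, chosen by library name: F6 to F9 were collected at 530 d (n = 4) and F26 to F30 at 640 d (n = 5). Sex, strain, diet, sham treatment (dose 0 cGy) and RNA integrity number (RIN) came from the sample labels, and the ages came from the study's own sample list because the labels hold none. The wider study set Western diet (WD) against ND in the RV of both sexes. A further 10 sham-treated C57Bl/6J females on WD, 5 collected at each age, were used to ask whether the ages differed alike on both diets. By the study's methods WD was given for a limited time and ended before either collection, with normal chow from then on, so on WD stands for mice with earlier WD feeding. The values were reads counted over the 3′ ends of genes from poly-A selected libraries. Total counts per library were between 12690702 and 19629175, with medians of 13120068.5 at 530 d and 18257998 at 640 d. Levels are given as CPM, the count of a gene scaled by the normalised size of its library.

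The RV pumps blood into the lungs, and its muscle cells burn mainly fatty acids in densely packed mitochondria. In the adult mouse ventricle the fast alpha-myosin heavy chain carries contraction, and the slower beta-myosin is the main form before birth. Endothelial cells, fibroblasts, pericytes and resident macrophages lie between the muscle cells and contribute to RNA from the whole tissue. RIN is a score of how intact RNA is, and poly-A selection is meant to leave ribosomal RNA behind.

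RIN was 7.6, 7.2, 5.9 and 7.3 in F6 to F9 and 6, 5.4, 4.9, 4.1 and 5.6 in F26 to F30. The ages overlapped in RIN only where F8 (5.9) lay under F26 (6). Mean RIN was 7 ± 0.753 (SD, n = 4) at 530 d and 5.2 ± 0.731 (SD, n = 5) at 640 d, a difference of -1.8 (two-sided exact permutation p = 0.0238). With near-identical libraries counted once the difference was -1.58 (exact permutation p = 0.0857). The 18S ribosomal RNA gene Rn18s-rs5 took 0.435, 0.412, 0.723 and 0.408% of all counts in F6 to F9 and 1.65, 1.62, 2.42, 1.78 and 1.57% in F26 to F30. F8 was the highest library at 530 d and F28 the highest at 640 d, and the ages did not overlap.

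Some libraries stood apart or close together. Counts of F6 and F7 differed by a mean chi-square of 2.18 per gene, and those of F29 and F30 by 3.27, where sampling noise alone gives about 1. The other pairs within an age lay between 12.3 (F26 and F27) and 82.4 (F26 and F28). Both near-identical pairs are listed as separate samples, so they were kept apart. They differed by more than sampling noise, which does not show that the libraries of a pair are independent. SE and adjusted p given without another setting take the 9 libraries as independent. Counts of genes and of list members with each pair summed are given beside those with the 9 libraries apart. F8 was nearest to F7 (24.7) of its own age, then to F27 (27.5) at 640 d, F6 (29.8) and F26 (31.4) at 640 d, and farther from F9 (60.6) of its own age. Among the 640 d libraries F28 was the farthest from F26 (82.4) and from F27 (71.6). The labels do not say whether each library came from its own mouse, so p-values measure the spread between these libraries.

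**Figure D1:**
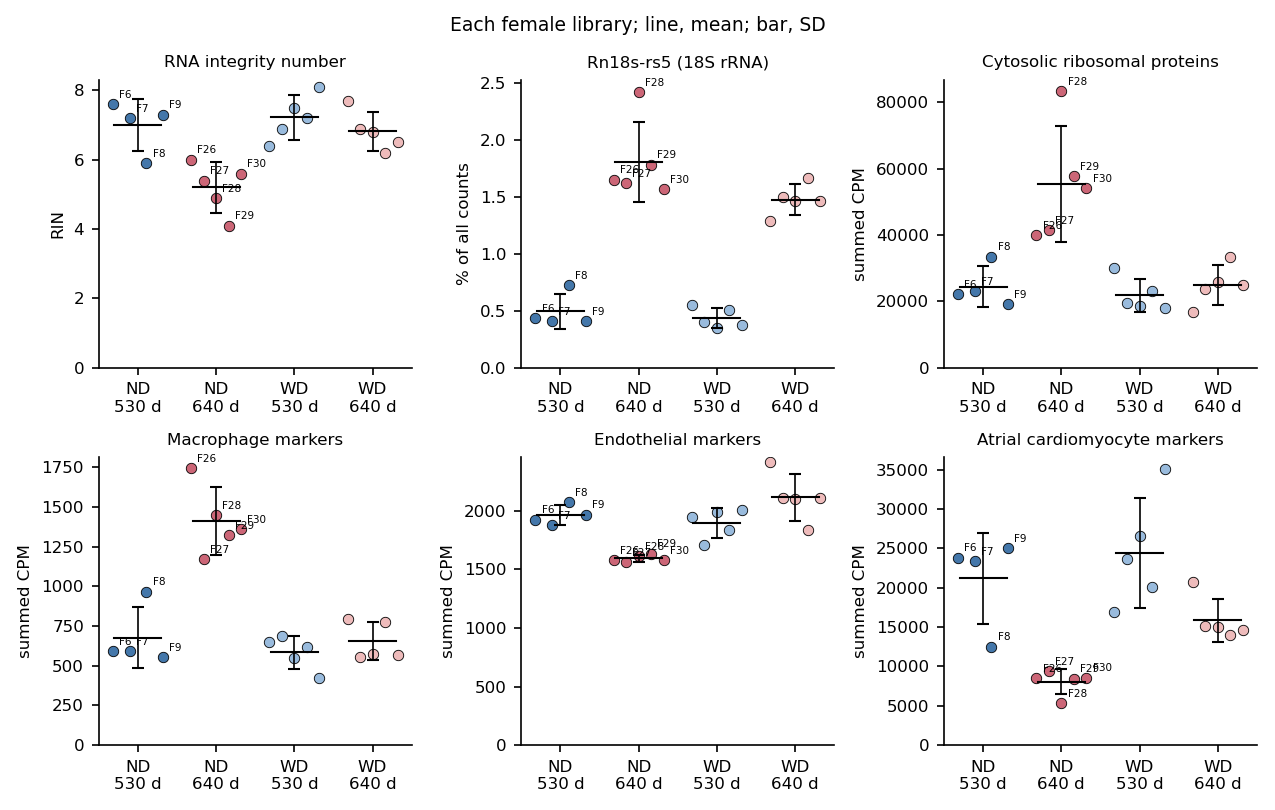
RIN, Rn18s-rs5 as % of all counts, and summed CPM (19-library scale) of 4 gene lists in each female library on ND (labelled) and WD, with lines for means and bars for SD. On ND the 640 d libraries lie above the 530 d libraries in Rn18s-rs5, ribosomal proteins and macrophage markers and below them in endothelial and atrial markers, of which Myh6 is the most abundant.

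The tissue label was checked against cell type markers. All 5 defining ventricular markers were present in the 9 libraries, with Myl2 between 7884 and 20362 CPM, Tnni3 between 4719 and 11589 CPM and Irx4 between 27.7 and 42.9 CPM. Of the atrial markers, Myl7 stood at 257, 266, 0.074 and 0.135 CPM in F6 to F9 and 0.486, 10.9, 16.5, 4.08 and 4.65 CPM in F26 to F30. Myl7, Myl4, Sln and Bmp10 were thus high in the near-identical F6 and F7 and low in F8 and F9, and Bmp10 had 0 counts in F8, F9 and F28. Nppa, the gene of atrial natriuretic peptide, stood at 32.4, 48.7, 0.222 and 16 CPM and 3.67, 0.663, 1.22, 1.28 and 0.492 CPM. It was high in F6, F7 and also F9, and lowest in F8. The skeletal muscle marker Myh4 had 0 counts in all 9 libraries, the lung marker Sftpc at most 2 and the T cell marker Cd3e at most 5. Adipoq had at most 62 counts (F6), and Cd79a at most 24 (F26). A count of 0 allows up to 0.162 to 0.255 CPM in these libraries (3 counts, for counting error only).

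Transcript levels differed between the ages across much of the RV transcriptome. Of 10995 genes tested, 4710 (42.8%) passed an adjusted p of 0.05 in edgeR's quasi-likelihood test, 2293 higher at 640 d (20.9%) and 2417 lower (22%). Most tested genes of cytosolic and mitochondrial ribosomal proteins, of nuclear-encoded oxidative phosphorylation and of macrophage markers were higher at 640 d. The myosin genes Myh6, Myh7 and Myh7b and most tested nuclear long non-coding RNAs, splicing and chromatin regulators and endothelial markers were lower. The gene lists were chosen with earlier results of these data known, so their shares are descriptions. In 1779 genes (16.2%) every 640 d library lay above every 530 d library, and in 1805 (16.4%) every one lay below. With the near-identical pairs summed 2482 genes passed (22.6%), 1195 higher (10.9%) and 1287 lower (11.7%), each of them also past the threshold with the 9 libraries apart.

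RIN moved with age, so the comparison was repeated with RIN in the model. edgeR then found 0 genes past an adjusted p of 0.05, with 1421 at an unadjusted p under 0.05 against 5662 without RIN. DESeq2 with RIN, added after seeing the data, found 86 (38 higher, 48 lower). Of the 4710 genes, 4656 had the same sign with RIN in edgeR's model, and 4239 with the pairs summed and RIN. With RIN across all 19 female libraries 4592 did. The 4710 were picked from the same ND libraries, so a kept sign is not independent support. Across all 19 female libraries in 1 model with RIN, 418 genes passed (3.8%), 177 higher (1.61%) and 241 lower (2.19%) on ND at 640 d, and 406 of these also passed in the same direction without RIN. Of the lists of 3 or more tested genes, 10 of 28 splicing and chromatin regulators and 7 of 17 macrophage markers passed in that model, and each other list had at most 3 members past. The part of RIN in the difference between the ages was not tested beyond these models.

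**Figure D2:**
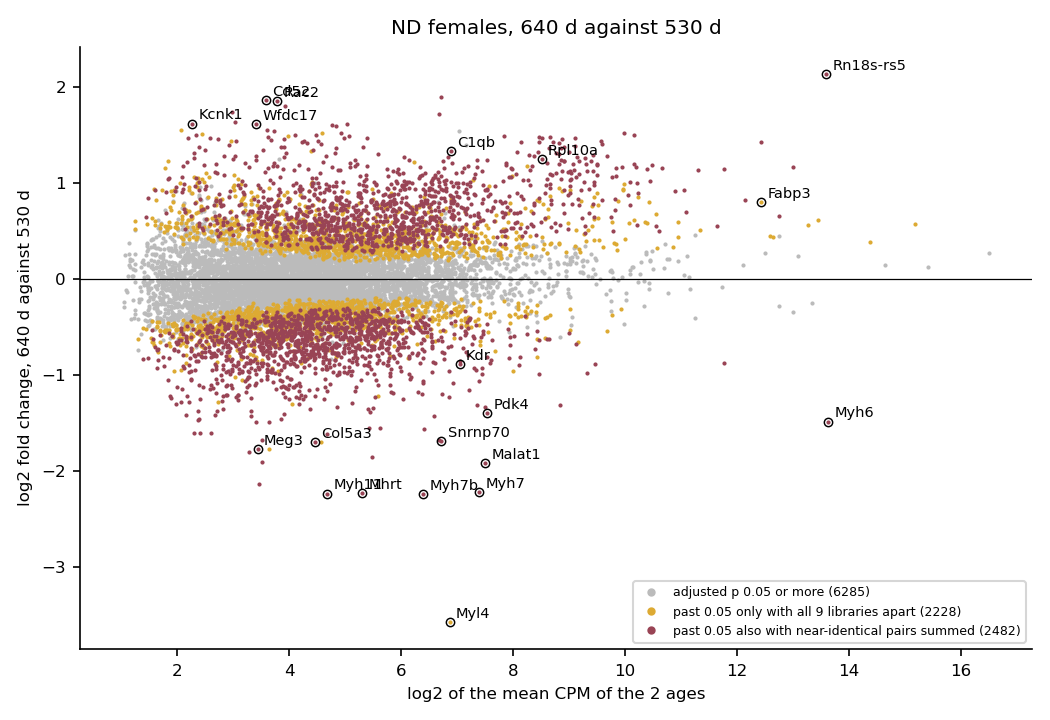
Log2 fold change at 640 d against 530 d (vertical) by log2 mean CPM (horizontal) for the 10995 genes tested in ND females, with named genes circled. Rn18s-rs5 lies highest at 2.13, Myh7b, Myh11, Mhrt and Myh7 lie between -2.24 and -2.22, and Myl4 lies lowest at -3.57 with ages that overlap.

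The myosin heavy chain genes Myh6, Myh7 and Myh7b were lower at 640 d, and Myh7b was among the 10 largest decreases. Myh6, which encodes alpha-myosin, stood at 20456, 19955, 11243 and 22958 CPM in F6 to F9 and 7079, 7929, 4098, 7027 and 7148 CPM in F26 to F30. Every 640 d library lay below F8, the lowest of the 530 d libraries, and F28 was lowest of all. The log2 fold change was -1.49 ± 0.23 (SE; edgeR adjusted p = 0.00142), from 18653 ± 5112 CPM (SD, n = 4) at 530 d and 6656 ± 1477 CPM (SD, n = 5) at 640 d. Myh7, the gene of beta-myosin, stood at 189, 186, 87.3 and 641 CPM at 530 d and 93.9, 52.4, 28.8, 66.2 and 54.7 CPM at 640 d. F9 was far above the rest, and the ages overlapped because F8 lay under F26. Myh7 differed by a log2 fold change of -2.22 ± 0.49 (SE; edgeR adjusted p = 0.0049), and of -1.37 without F9. Myh7b, a related myosin of striated muscle, stood at 118, 118, 52.7 and 265 CPM against 41.8, 32.2, 11.4, 31.1 and 28.9 CPM. F9 was again the highest and F28 the lowest, without overlap between the ages. Myh7b differed by a log2 fold change of -2.24 ± 0.42 (SE; edgeR adjusted p = 0.00246). With RIN in the model the values were -0.91 for Myh6, -1.11 for Myh7 and -1.15 for Myh7b, with adjusted p between 0.339 and 0.565.

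Non-coding genes at the myosin locus were lower as well. Myh6 (chr14:55179367-55205887, GRCm39, minus strand) and Myh7 (chr14:55208141-55232084, minus strand) are neighbours, and the long non-coding RNA Mhrt (chr14:55205795-55229058) runs between and across them on the plus strand. Mhrt stood at 65.2, 61.8, 33.5 and 99.5 CPM in F6 to F9 and 13.9, 16.8, 8.55, 14.7 and 15 CPM in F26 to F30. F9 was the highest and F28 the lowest, and every 640 d library lay below every 530 d library. Mhrt differed by a log2 fold change of -2.23 ± 0.27 (SE; edgeR adjusted p = 0.00084). Mir208b, the hairpin gene inside an intron of Myh7, stood at 17.3, 17.8, 8.88 and 27.5 CPM against 3.24, 4.75, 1.71, 4.25 and 6.07 CPM, without overlap, with a log2 fold change of -2.13 ± 0.33 (SE, edgeR adjusted p = 0.00144). Whether counting used strand is not given in the sources used here, so reads of Mhrt, Mir208b, Myh6 and Myh7 cannot be told apart where they overlap, and Myh7b overlaps Gss, Trpc4ap and Mir499. Mature microRNAs are not captured by poly-A libraries, and no level of them was measured. The mature sequences of the microRNAs hosted by Myh7, Myh6 and Myh7b are shown because their host genes moved together, from RefSeq (GRCm38.p6), 5′ to 3′ with the seed (bases 2 to 8) in capitals. miR-208b-3p lies at chr14:54975710-54975731 (minus strand), miR-208a-3p at chr14:54949072-54949093 (minus strand) and miR-499-5p at chr2:155622893-155622913 (plus strand).
miR-208b-3p: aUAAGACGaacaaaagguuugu
miR-208a-3p: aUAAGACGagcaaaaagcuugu
miR-499-5p: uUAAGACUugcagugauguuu
The 208 members share the seed UAAGACG, and miR-499-5p has the seed UAAGACU. The Myh6 promoter window (chr14:54966558-54966857, GRCm38.p6, minus strand, 250 bases before to 50 after the start) holds the M-CAT core CATTCC, searched on both strands, as GGAATG in capitals. The Myh7b window (chr2:155610993-155611292, plus strand) does not hold these letters.
Myh6: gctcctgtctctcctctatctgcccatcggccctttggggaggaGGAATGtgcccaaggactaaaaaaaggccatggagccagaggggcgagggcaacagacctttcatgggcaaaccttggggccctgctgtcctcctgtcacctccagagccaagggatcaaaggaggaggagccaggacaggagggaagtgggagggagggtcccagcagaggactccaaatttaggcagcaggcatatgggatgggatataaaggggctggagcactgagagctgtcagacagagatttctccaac
Myh7b: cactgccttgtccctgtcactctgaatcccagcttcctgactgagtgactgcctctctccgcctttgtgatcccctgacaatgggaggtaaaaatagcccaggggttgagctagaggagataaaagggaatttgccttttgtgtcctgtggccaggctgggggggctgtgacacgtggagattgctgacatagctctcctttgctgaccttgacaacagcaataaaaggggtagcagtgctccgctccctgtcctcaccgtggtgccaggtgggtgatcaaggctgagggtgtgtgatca
The letters occur in 4817 of 32851 such windows (14.7%), and a match is a description of the window.

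Sarcomere genes were mixed. Of 26 tested sarcomere and Z-disc genes, 6 were higher and 5 lower, with a median log2 fold change of -0.07 (0.14 with RIN in the model) against -0.03 over all genes tested, shares near the 20.9% and 22% of all genes tested. The list holds Myh6 and Myh7, which are 2 of the 5, and 5 members passed with the pairs summed. Myl2, the ventricular regulatory light chain, stood at 8510, 8835, 9983 and 7884 CPM at 530 d and 10709, 10406, 20362, 12995 and 12734 CPM at 640 d. F28 was well above the other libraries and the ages did not overlap. Myl2 differed by a log2 fold change of 0.61 ± 0.20 (SE; edgeR adjusted p = 0.0268), and with the near-identical pairs summed the adjusted p was 0.109. In the 19-library model with RIN its direction turned (-0.0745). Myoz2, a Z-disc protein that binds calcineurin, stood at 783, 769, 874 and 800 CPM against 1336, 1331, 1658, 1307 and 1268 CPM. The 640 d libraries were all higher, with a log2 fold change of 0.77 ± 0.11 (SE, edgeR adjusted p = 0.00112). Of 10 cardiac stress and fetal genes tested, 2 were higher and 1 lower (median 0.08, 0.37 with RIN in the model, and between -0.16 and 0.36 when 1 library was left out) and 2 passed with the pairs summed, with Csrp3, a muscle LIM protein, at 0.55 ± 0.12 (SE; edgeR adjusted p = 0.00534) and Xirp2 at -0.11 ± 0.20 (SE, edgeR adjusted p = 0.683). Of 26 calcium handling and ion channel genes, 2 were higher and 7 lower, the latter 26.9% of the list against 22% of all genes tested. The list's median was -0.17, and -0.04 with RIN in the model. With the pairs summed 1 of 26 passed, where 22.6% of all genes tested did in either direction. The L-type channel Cacna1c was lower, with a log2 fold change of -0.84 ± 0.16 (SE, edgeR adjusted p = 0.00272), and the sodium-calcium exchanger Slc8a1 too, at -0.41 ± 0.10 (SE, edgeR adjusted p = 0.00635), though not past the threshold with the pairs summed (adjusted p = 0.0571). The pump Atp2a2 at -0.28 ± 0.12 (SE, edgeR adjusted p = 0.0706) and its inhibitor Pln at -0.22 ± 0.11 (SE, edgeR adjusted p = 0.135) did not pass, though Atp2a2 did in DESeq2 (adjusted p = 0.0115). Among 12 ventricular cardiomyocyte markers 4 were higher, with the transcription factor Nkx2-5 at 0.51 ± 0.11 (SE; edgeR adjusted p = 0.00352), and Myh6 alone was lower. Of the 12, 2 passed with the pairs summed. Their median was -0.02, 0.14 with RIN in the model and 0.01 with DESeq2's size factors.

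Nuclear long non-coding RNAs were lower at 640 d. Malat1, which lies in nuclear speckles, stood at 289, 293, 204 and 354 CPM in F6 to F9 and 92.2, 78.1, 50.1, 71.7 and 85.5 CPM in F26 to F30. The lowest 530 d library, F8, was above every 640 d library. The log2 fold change was -1.91 ± 0.19 (SE; edgeR adjusted p = 0.000806), and -1.35 with RIN in the model. Meg3, an imprinted RNA, stood at 17.7, 17.6, 13.3 and 18.1 CPM against 4.1, 5.64, 4.15, 5.19 and 5.36 CPM. The 530 d libraries lay close together apart from the lower F8, and the ages did not overlap. Meg3 differed by a log2 fold change of -1.77 ± 0.14 (SE; edgeR adjusted p = 0.000299). Neat1, the scaffold of paraspeckles, stood at 853, 853, 552 and 1120 CPM against 477, 337, 278, 531 and 512 CPM. F8 came near F29 and F30, without overlap. Neat1 differed by a log2 fold change of -0.98 ± 0.22 (SE; edgeR adjusted p = 0.0057). In all, 5 of 6 tested members of the list passed as lower (4 with the pairs summed), where 22% and 11.7% of all genes tested did, with a median of -0.76 against -0.03 over all genes tested. With RIN in the model the median was -0.59. In the 19-library model with RIN 1 of 6 passed as lower (2.19% of all genes tested did). Outside the list, Firre, an X-linked nuclear RNA, was lower at -1.35 ± 0.15 (SE, edgeR adjusted p = 0.000806), from 61.2 ± 13.4 CPM (SD, n = 4) at 530 d and 23.9 ± 2.76 CPM (SD, n = 5) at 640 d. AI480526, which overlaps Setd1b on the opposite strand, was lower, at -1.80 ± 0.22 (SE, edgeR adjusted p = 0.00084).

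Genes of RNA splicing and chromatin followed the same direction. The list was drawn up as RNA-binding, splicing and chromatin regulators of long transcripts. Like the other lists, it was chosen with earlier results of these data known, so its counts are a description and not independent support. Of its 28 tested members 24 passed as lower (22% of all genes tested did) and 22 with the pairs summed (11.7%), with a median of -0.63. The other 4 did not pass, and 24 of 28 had every 640 d library below every 530 d library. The members' own canonical transcripts had a median of 6493 bases against 3466 over all genes tested, and the part of length in this result was not tested. Ddx17, an RNA helicase, stood at 214, 216, 179 and 243 CPM at 530 d and 115, 113, 99.6, 113 and 111 CPM at 640 d. The 5 older libraries lay within a narrow band below the younger ones. Ddx17 differed by a log2 fold change of -0.95 ± 0.10 (SE; edgeR adjusted p = 0.000806). Srsf5, a serine/arginine-rich splicing factor, stood at 249, 244, 201 and 234 CPM against 128, 121, 94.6, 122 and 119 CPM. F28 was the lowest and the ages did not overlap. Srsf5 differed by a log2 fold change of -0.98 ± 0.11 (SE; edgeR adjusted p = 0.000806). The helicase Ddx5 was lower, at -0.63 ± 0.10 (SE, edgeR adjusted p = 0.00162). Snrnp70 and Leng8 are not in the list and were among the 10 largest decreases. Snrnp70, the 70K protein of the U1 particle, stood at 165, 166, 100.3 and 211 CPM against 58.4, 52.4, 25.2, 58.9 and 53.4 CPM, with F28 lowest and no overlap, and a log2 fold change of -1.69 ± 0.25 (SE, edgeR adjusted p = 0.00113). Leng8 was lower, at -1.68 ± 0.29 (SE, edgeR adjusted p = 0.00198). With RIN in the model the list's median was -0.36, and in the 19-library model with RIN 10 of 28 passed as lower (2.19% of all genes tested did).

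Ribosomal protein transcripts were higher at 640 d. Of 80 cytosolic ribosomal protein genes tested, 75 passed as higher (20.9% of all genes tested did) and the other 5 did not pass. With the pairs summed 72 of 80 passed as higher (10.9%). With the 9 libraries apart the list's median log2 fold change was 1.17 against -0.03 over all genes tested. Summed, the list stood at 21204, 22022, 32188 and 18507 CPM in F6 to F9 and 38378, 39754, 79290, 54947 and 51441 CPM in F26 to F30. F8 was the highest library at 530 d and F28 by far the highest at 640 d, and the ages did not overlap. Rpl10a, of the large subunit, stood at 191, 195, 299 and 177 CPM against 387, 398, 716, 545 and 519.6 CPM. F8 was closest to F26, without overlap. Rpl10a differed by a log2 fold change of 1.25 ± 0.21 (SE; edgeR adjusted p = 0.00181). Among the most abundant, Rps2 was higher by 1.16 ± 0.22 (SE, edgeR adjusted p = 0.00261) and Rplp0 by 1.19 ± 0.23 (SE, edgeR adjusted p = 0.00283). Rpl10a and Rpl3, the latter at 0.83 ± 0.13 (SE, edgeR adjusted p = 0.00159), had the smallest p in the list. In 73 of 80 genes every 640 d library lay above every 530 d library (16.2% of all genes tested). With RIN in the model the median was 0.50, and in the 19-library model with RIN 1 of 80 passed (1.61% of all genes tested did as higher). On ND, RIN was lower at 640 d while Rn18s-rs5 and these transcripts were higher. On WD, mean RIN was 7.22 at 530 d and 6.82 at 640 d. There Rn18s-rs5 was higher at 640 d by a log2 fold change of 1.86, and the median of this list was 0.21. The part of RNA quality in the result was not tested.

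The retrogene Rps27rt (1.80) and the processed pseudogenes Rpl39-ps1 (1.64), Rpl31-ps8 (1.62) and Rpl35a-ps2 (1.56) were also among the 10 largest increases by log2 fold change that passed with the pairs summed and did not overlap between the ages, predicted genes left out. Their sequences are close to those of the parent ribosomal genes, so their reads may be split with them and their own levels are uncertain. Rn18s-rs5, 18S ribosomal RNA, had the largest increase, from 4025, 3824, 6827 and 3611 CPM to 16507, 16344, 31262, 19259 and 16805 CPM. All 640 d libraries were at least 16344 CPM and no 530 d library passed 6827 CPM. Rn18s-rs5 differed by a log2 fold change of 2.13 ± 0.26 (SE; edgeR adjusted p = 0.000869), and 1.46 in the 19-library model with RIN (adjusted p = 0.00535). Other copies of the 18S gene may share its reads. The mitochondrial ribosomal RNAs mt-Rnr1 and mt-Rnr2 were higher by 1.43 ± 0.26 (SE, edgeR adjusted p = 0.00232) and 1.16 ± 0.20 (SE, edgeR adjusted p = 0.00192). The 13 mitochondrially encoded transcripts tested included 4 that passed as higher (2 with the pairs summed), 30.8% of the list against 20.9% of all genes tested (10.9% with the pairs summed), and mt-Rnr1 and mt-Rnr2 are 2 of the 4. The list's median was 0.27, -0.01 with RIN in the model, and between 0.05 and 0.35 when 1 library was left out. The most abundant, mt-Co1, stood at 83814 ± 11418 CPM (SD, n = 4) at 530 d and 100964 ± 6592 CPM (SD, n = 5) at 640 d, with a log2 fold change of 0.27 ± 0.15 (SE, edgeR adjusted p = 0.162) and an adjusted p of 0.0238 in DESeq2, and mt-Cytb had 0.12 ± 0.14 (SE, edgeR adjusted p = 0.509).

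Transcripts of mitochondrial proteins encoded in the nucleus were higher at 640 d. Of 79 tested oxidative phosphorylation genes 65 passed as higher (median 0.79), and of 78 mitochondrial ribosomal protein genes 65 passed as higher (median 0.60), against 20.9% of all genes tested. With the pairs summed 31 of 79 and 46 of 78 passed as higher (10.9% of all genes tested did). No tested member of either list passed as lower in edgeR's test, in DESeq2's or at an unadjusted p under 0.05. Atp5mc1, a subunit of the ATP synthase ring, stood at 1531, 1532, 1921 and 1316 CPM at 530 d and 2759, 2747, 4640, 3719 and 3470 CPM at 640 d. F28 was the highest, and F8 remained below every 640 d library. Atp5mc1 differed by a log2 fold change of 1.14 ± 0.18 (SE; edgeR adjusted p = 0.00144). Cox6a1 of complex IV was higher by 0.94 ± 0.16 (SE, edgeR adjusted p = 0.0019). The most abundant members did not pass in edgeR: Atp5f1b had a log2 fold change of 0.27 ± 0.13 (SE, edgeR adjusted p = 0.112) and Atp5f1a of 0.15 ± 0.11 (SE, edgeR adjusted p = 0.297), both with overlap between the ages. DESeq2 gave Atp5f1b an adjusted p of 0.0329. Among mitochondrial ribosomal proteins, Mrps23 was higher by 0.69 ± 0.10 (SE, edgeR adjusted p = 0.0011), Mrpl34 by 1.02 ± 0.15 (SE, edgeR adjusted p = 0.00117), Mrpl42 by 1.27 ± 0.25 (SE, edgeR adjusted p = 0.00304) and Mrpl12 by 0.87 ± 0.16 (SE, edgeR adjusted p = 0.00248). With RIN in the model the medians were 0.28 and 0.30. In edgeR's 19-library model with RIN 3 of 78 mitochondrial ribosomal protein genes passed as higher, and 0 of 79 oxidative phosphorylation genes. Of all genes tested 1.61% passed as higher. At an unadjusted p under 0.05 were 16 of 78 and 5 of 79, where 2333 of all 10995 genes tested were. DESeq2 was not run in that model.

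Genes of fuel use went in both directions. Of 30 fatty acid oxidation genes tested 2 were higher and 6 lower, 6.67% and 20% of the list against 20.9% and 22% of all genes tested. The list's median was -0.03, -0.17 with RIN in the model and -0.19 in the 19-library model with RIN. With the pairs summed 4 of 30 passed (22.6% of all genes tested did in either direction). Lpl, lipoprotein lipase, which frees fatty acids from lipoproteins, stood at 5014, 5019, 3342 and 4735 CPM in F6 to F9 and 2533, 2623, 2392, 2425 and 2398 CPM in F26 to F30. The 640 d libraries lay within a narrow band below F8, the lowest at 530 d. Lpl differed by a log2 fold change of -0.87 ± 0.13 (SE; edgeR adjusted p = 0.00135). Pdk4, the kinase that shuts off pyruvate dehydrogenase, stood at 326, 312, 272 and 169 CPM against 87.6, 110.3, 141, 89.9 and 82.9 CPM. F9 was the lowest at 530 d and F28 the highest at 640 d, without overlap. Pdk4 differed by a log2 fold change of -1.40 ± 0.20 (SE, edgeR adjusted p = 0.00113) and -1.49 with RIN in the model. The fatty acid carrier Fabp3 was higher by 0.80 ± 0.20 (SE, edgeR adjusted p = 0.00878), though not past the threshold with the pairs summed (adjusted p = 0.0587). Of 20 genes of glucose uptake and glycolysis 10 were higher (20.9% of all genes tested were) and 2 lower, and 9 passed with the pairs summed, with a median of 0.28 and of 0.27 with RIN in the model. Gapdh stood at 3276, 3103, 3409 and 3295 CPM against 5419, 4874, 6384, 6237 and 6091 CPM. The 530 d libraries were close together and every 640 d library was higher. Gapdh differed by a log2 fold change of 0.83 ± 0.12 (SE, edgeR adjusted p = 0.00112), and 0.59 in the 19-library model with RIN (adjusted p = 0.0344). Aldoa and Tpi1 were higher by 0.55 ± 0.13 (SE, edgeR adjusted p = 0.00558) and 0.71 ± 0.13 (SE, edgeR adjusted p = 0.00223).

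**Figure D3:**
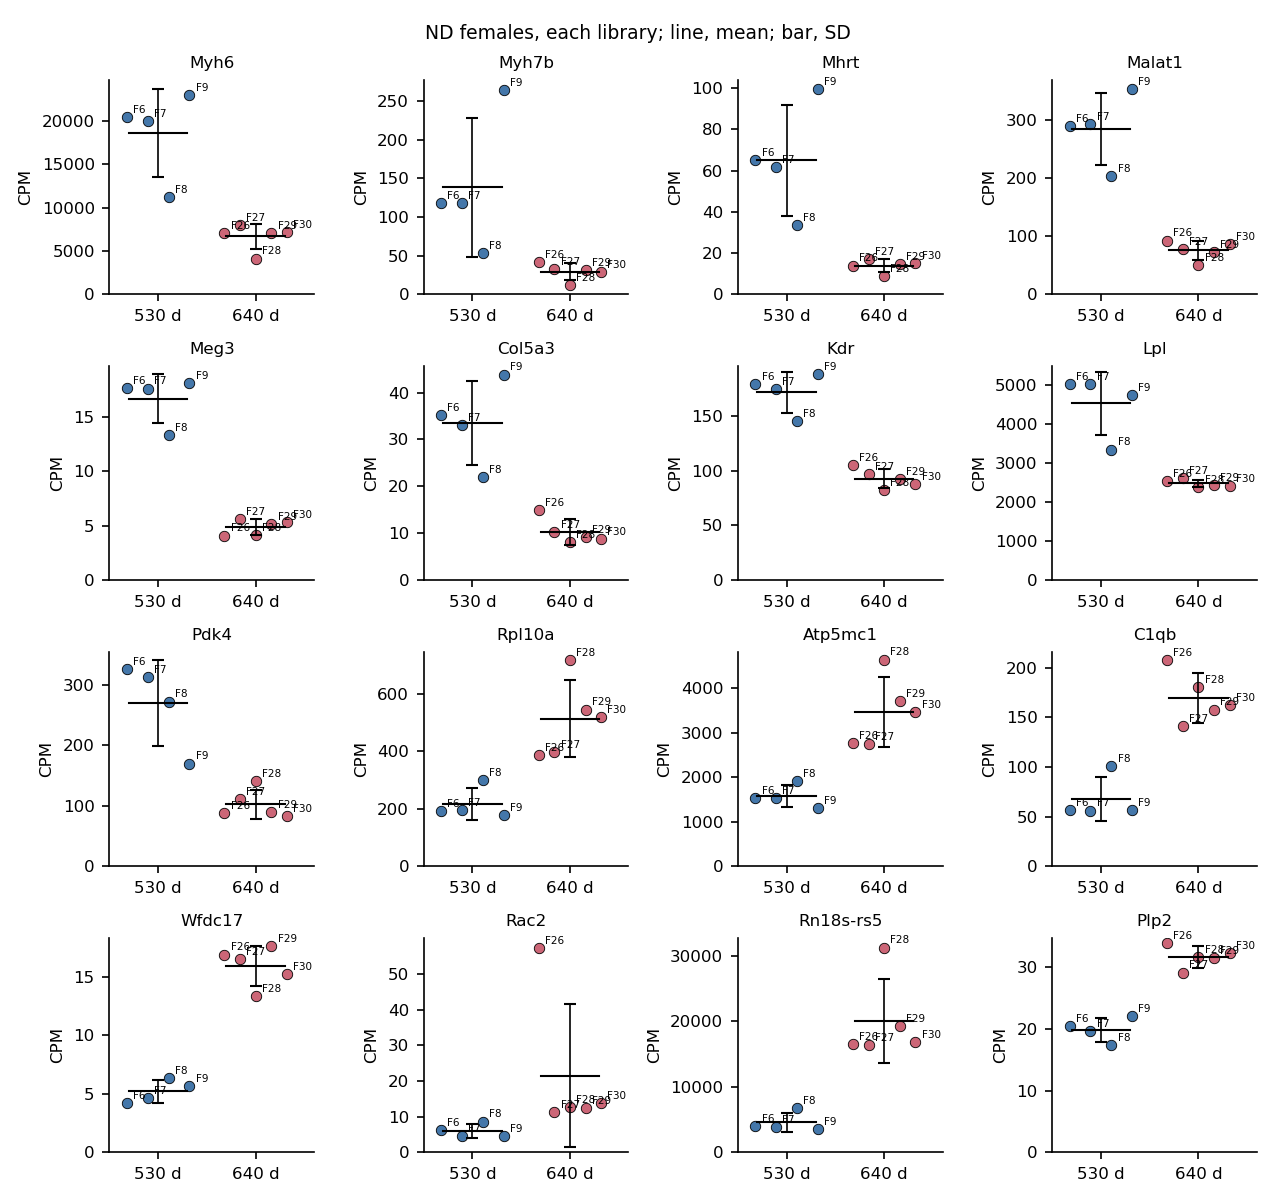
CPM of 16 named genes in each ND female library at 530 d (F6 to F9) and 640 d (F26 to F30), with lines for means and bars for SD. The ages do not overlap in any of the 16, F28 or F26 is often the most extreme at 640 d, and F8 is the 530 d library nearest to 640 d in many panels.

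Macrophage transcripts were higher at 640 d. Of 17 macrophage markers tested, 13 passed as higher (20.9% of all genes tested did), with a median log2 fold change of 1.14, and the other 4 did not pass. The count was 9 of 17 with the pairs summed (10.9%). Summed over the list, CPM was 569.9, 566, 930.1 and 536 in F6 to F9 and 1681, 1120, 1378, 1262 and 1295 in F26 to F30. F26 was the highest, F8 was the highest at 530 d, and the ages did not overlap. Lyz2, lysozyme, was the most abundant marker, at 170, 165, 298 and 156 CPM at 530 d and 560, 361, 455, 415 and 443 CPM at 640 d. Every 640 d library was above F8, the highest at 530 d. Lyz2 differed by a log2 fold change of 1.18 ± 0.20 (SE; edgeR adjusted p = 0.0019). C1qb, a chain of the complement starter C1q that tissue macrophages make, stood at 56.6, 56.2, 101 and 56.9 CPM against 208, 142, 180.5, 158 and 162 CPM. F8 came nearest to the older libraries without overlap. C1qb differed by a log2 fold change of 1.33 ± 0.19 (SE; edgeR adjusted p = 0.00108), and 1.05 with RIN in the model. In the 19-library model with RIN 7 of 17 passed as higher (1.61% of all genes tested did). Among the 7 were C1qb (0.99, adjusted p = 0.0165), C1qa (0.80, 0.0182), C1qc (0.94, 0.0195) and Cd68 (0.99, 0.0386). In RNA from whole tissue, fewer cells of a type and less RNA per cell, or more of either, cannot be told apart. The part of macrophage RNA in the other results was not tested.

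Further immune genes were among the largest increases. Cd52, a surface glycoprotein of leukocytes, stood at 3.76, 4.23, 8.44 and 4.46 CPM in F6 to F9 and 41.7, 11.8, 13.1, 16.6 and 10.7 CPM in F26 to F30. Rac2, a GTPase of blood cells, stood at 6.27, 4.51, 8.66 and 4.6 CPM against 57.2, 11.4, 12.8, 12.4 and 13.9 CPM. F26 was far above the other libraries in both, and the ages did not overlap. The log2 fold changes were 1.86 ± 0.43 (SE, edgeR adjusted p = 0.00595) and 1.86 ± 0.51 (SE, edgeR adjusted p = 0.0134), the latter 1.08 without F26. Cd52 overlaps Crybg2 on the opposite strand. Wfdc17, a secreted protein of myeloid cells, stood at 4.18, 4.65, 6.37 and 5.68 CPM against 16.9, 16.5, 13.4, 17.6 and 15.2 CPM. The libraries of each age lay close together, without overlap. Wfdc17 differed by a log2 fold change of 1.61 ± 0.14 (SE, edgeR adjusted p = 0.000545), and 1.28 in the 19-library model with RIN (adjusted p = 0.0133). Of 14 complement genes tested 6 were higher, with the pairs summed as well (20.9% and 10.9% of all genes tested were). The median of these 14 was 0.27, 0.31 with RIN in the model and 0.55 in the 19-library model with RIN. C1qa, C1qb and C1qc, 3 of the 6, are also macrophage markers, while C3 at 0.29 ± 0.19 (SE, edgeR adjusted p = 0.247) and Clu at -0.15 ± 0.17 (SE, edgeR adjusted p = 0.511) did not pass. With RIN in the model the directions of C3 (-0.0741) and Clu (0.40) turned, and Clu was at 0.73 in the 19-library model with RIN. The median of the 7 class II antigen presentation genes was 0.60, 0.15 with RIN in the model and 0.11 in the 19-library model with RIN. Of the 7, 2 passed as higher and 1 with the pairs summed, 28.6% of the list against 20.9% of all genes tested. They were H2-DMa at 0.81 ± 0.19 (SE, edgeR adjusted p = 0.0061) and Ctss at 0.72 ± 0.27 (SE, edgeR adjusted p = 0.0485) (0.44 and not past the threshold without F26, and an adjusted p of 0.12 with the pairs summed), while the abundant Cd74 at 0.34 ± 0.20 (SE, edgeR adjusted p = 0.175) and H2-Aa at 0.68 ± 0.29 (SE, edgeR adjusted p = 0.079) did not pass, though H2-Aa did in DESeq2 (adjusted p = 0.0401). Of 34 class I and interferon-induced genes 10 were higher and 5 lower (median 0.13, and -0.09 in the 19-library model with RIN), 29.4% and 14.7% against 20.9% and 22% of all genes tested, and 8 passed with the pairs summed (22.6% of all genes tested did in either direction). Among the 34 were Ifi27l2a at 1.28 ± 0.16 (SE, edgeR adjusted p = 0.000944), Psmb10 at 0.55 ± 0.09 (SE, edgeR adjusted p = 0.0016), B2m at 0.69 ± 0.14 (SE, edgeR adjusted p = 0.00304) and H2-D1 at -0.04 ± 0.09 (SE, edgeR adjusted p = 0.764). Ighm, the IgM heavy chain and the single B cell marker tested of 9, was higher by 0.86 ± 0.17 (SE, edgeR adjusted p = 0.0031).

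Endothelial and mural cell genes were lower at 640 d. Of 15 endothelial markers 10 passed as lower (22% of all genes tested did) and 5 did not pass, and 7 passed with the pairs summed (11.7%), with a median log2 fold change of -0.43 and of -0.43 with RIN in the model. In the 19-library model with RIN 2 of 15 passed as lower (2.19% of all genes tested did) and the median was -0.30. The list summed to 1848, 1796, 1999 and 1897 CPM in F6 to F9 and 1522, 1493, 1532, 1557 and 1502 CPM in F26 to F30. The 640 d libraries lay within a narrow band below F7, the lowest at 530 d. Kdr, the main VEGF receptor of endothelium, stood at 179, 175, 145 and 188 CPM against 105, 96.8, 82.4, 92.5 and 87.4 CPM. F8 was the lowest at 530 d, above every 640 d library. Kdr differed by a log2 fold change of -0.89 ± 0.10 (SE; edgeR adjusted p = 0.00084), and -0.71 in the 19-library model with RIN (adjusted p = 0.034). Flt1, the decoy VEGF receptor, was lower, at -0.67 ± 0.09 (SE, edgeR adjusted p = 0.00101). The most abundant markers, Aqp1 at -0.07 ± 0.21 (SE, edgeR adjusted p = 0.819) and Eng at 0.15 ± 0.12 (SE, edgeR adjusted p = 0.311), did not pass. Rgs5, a pericyte gene, stood at 407, 405, 418 and 406 CPM at 530 d and 288, 268, 280.1, 280.4 and 288 CPM at 640 d. Each age was tight, without overlap. Rgs5 differed by a log2 fold change of -0.54 ± 0.08 (SE, edgeR adjusted p = 0.00117) and -0.55 with RIN in the model. Of 7 pericyte markers 1 was higher and 4 lower (median -0.31, and -0.17 with RIN in the model), and 2 passed with the pairs summed. The 4 include Notch3 at -0.55 ± 0.15 (SE, edgeR adjusted p = 0.0126) and Abcc9 at -0.31 ± 0.10 (SE, edgeR adjusted p = 0.0294), the latter with an adjusted p of 0.108 with the pairs summed. Of 4 smooth muscle markers 3 were lower, with the pairs summed as well (median -0.91). Myh11, smooth muscle myosin, stood at 58.8, 61.9, 13.1 and 34.4 CPM against 4.7, 11.8, 9.61, 9.1 and 9.56 CPM. F6 and F7, where atrial Myl7 was also high (257 and 266 CPM), were the highest, and F8 came close to F27, without overlap. The smooth muscle list summed to 468, 478, 243 and 423 CPM against 213, 306, 329, 323 and 322 CPM, with overlap between the ages. Myh11 differed by a log2 fold change of -2.24 ± 0.38 (SE, edgeR adjusted p = 0.00199), while Acta2 had 0.54 ± 0.25 (SE, edgeR adjusted p = 0.105) and Smtn -0.92 ± 0.17 (SE, edgeR adjusted p = 0.00248).

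Matrix genes were more often lower than higher. Of 41 collagen and extracellular matrix genes tested 4 were higher and 21 lower (20.9% and 22% of all genes tested were), and 13 passed with the pairs summed (22.6% of all genes tested did in either direction), with a median of -0.28 and of 0.07 in the 19-library model with RIN. Col5a3, a chain of type V collagen, stood at 35.2, 33, 22 and 43.8 CPM in F6 to F9 and 14.9, 10.3, 8.06, 9.27 and 8.74 CPM in F26 to F30. F8 was the lowest at 530 d and F26 the highest at 640 d, without overlap. Col5a3 differed by a log2 fold change of -1.70 ± 0.21 (SE; edgeR adjusted p = 0.000869). Lamb1, a laminin chain of basement membrane, stood at 73.1, 71.5, 80.1 and 81.4 CPM against 52.7, 48, 47.3, 43.1 and 47.2 CPM. The ages were tight and did not overlap, and the log2 fold change was -0.68 ± 0.08 (SE, edgeR adjusted p = 0.00084). Hspg2, perlecan, was lower, at -0.62 ± 0.18 (SE, edgeR adjusted p = 0.0184), with overlap between the ages, -0.36 without F9 and an adjusted p of 0.0645 with the pairs summed. Of 11 fibroblast markers 1 passed, Col1a1, lower, at -0.56 ± 0.17 (SE, edgeR adjusted p = 0.019), at -0.32 without F9 and not past the threshold with the pairs summed (adjusted p = 0.0636). In the 19-library model with RIN its direction turned (0.37). Gsn had -0.15 ± 0.13 (SE, edgeR adjusted p = 0.383), Dcn 0.06 ± 0.17 (SE, edgeR adjusted p = 0.794) and Dpep1 0.47 ± 0.18 (SE, edgeR adjusted p = 0.0517), the last with an adjusted p of 0.0294 in DESeq2, and the median of the fibroblast list was 0.12, and -0.22 with RIN in the model.

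Other lists are given by their counts, beside 20.9% higher and 22% lower among all genes tested, and 22.6% either way with the pairs summed. Of 23 antioxidant genes 16 were higher and 1 lower (median 0.44, and 0.27 with RIN in the model), and 7 passed with the pairs summed. Among them Gpx4, which reduces lipid peroxides, was at 1.01 ± 0.18 (SE, edgeR adjusted p = 0.00213) and Prdx6 at 0.69 ± 0.11 (SE, edgeR adjusted p = 0.00158). Prdx5 was at 0.51 ± 0.15 (SE, edgeR adjusted p = 0.0161), with an adjusted p of 0.0776 with the pairs summed. Of 31 proteasome genes 20 were higher, and 10 with the pairs summed (median 0.37, and 0.20 with RIN in the model). Of 22 autophagy and ubiquitin ligase genes 7 were higher and 2 lower (median 0.07), and 4 passed with the pairs summed. Of 16 heat shock and chaperone genes 5 were higher and 1 lower, and 1 passed with the pairs summed (median 0.14, and 0.25 with RIN). Of 18 unfolded protein response genes 5 were higher and 5 lower, and 2 passed with the pairs summed (median -0.01, 0.09 with RIN in the model and 0.02 with DESeq2's size factors). Of 22 genes of senescence, p53 and cell cycle arrest 3 were higher and 1 lower, and 1 passed with the pairs summed. Their median was 0.06, and 0.03 with RIN in the model. Of 14 glucocorticoid-induced genes 5 were higher and 3 lower (median 0.26, and 0.04 with RIN in the model), and 6 passed with the pairs summed. As shares, 31.8% of the autophagy and ubiquitin ligase list, 31.2% of the heat shock and chaperones list, 27.8% of the unfolded protein response list and 35.7% of the glucocorticoid-induced list were higher. Of 19 immediate early genes 1 was higher and 2 were lower (median -0.03, -0.15 with RIN in the model, 0.06 in the 19-library model with RIN, and up to 0.09 when 1 library was left out), and 2 passed with the pairs summed. Ier3, an immediate early gene, stood at 39, 40.5, 41.2 and 55.3 CPM at 530 d and 71.2, 85.2, 66.8, 67 and 71.7 CPM at 640 d. F9 and F27 were the highest of their ages, without overlap, and the log2 fold change was 0.72 ± 0.12 (SE, edgeR adjusted p = 0.00168). Of 12 genes of the clock's output arm 4 were lower (median -0.19, and 0.15 in the 19-library model with RIN), 2 with the pairs summed, and of 4 in the opposite arm 3 were higher and 1 lower (median 0.59), where 3 passed with the pairs summed. The hour of collection is not given in the labels. The 3 tested genes of oestrogen and androgen receptors and targets did not pass in edgeR's test (median 0.12, and -0.23 with RIN in the model).

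Markers of other cells and tissues were compared as well. Of 11 atrial cardiomyocyte markers 7 were tested and 3 were lower (22% of all genes tested were), 1 of them with the pairs summed, a share of the 7 near the 11.7% of all genes tested. The list's median was -0.61, and 0.63 in the 19-library model with RIN. The list summed to 22865, 22388, 12033 and 24130 CPM in F6 to F9 and 8189, 8971, 5041, 8040 and 8146 CPM in F26 to F30, but its most abundant member is Myh6, which ventricles also express. Without Myh6 the sums were 2409, 2433, 789.96 and 1172 CPM against 1110, 1042, 943, 1013 and 998.5 CPM. F6 and F7 were high and F8 was the lowest of the 9, so the ages overlapped. Myl4, the atrial light chain, stood at 416, 435, 3.18 and 3.72 CPM against 4.97, 22, 38, 12.5 and 13.6 CPM, high in F6 and F7 and low in the other 7. Its log2 fold change of -3.57 ± 1.16 (SE, edgeR adjusted p = 0.0281) rests on that near-identical pair, and with the pairs summed the adjusted p was 0.145, with the direction turned when RIN was in that model too (1.77). The part of atrial RNA in the other results was not tested. Red blood cell genes summed to 125, 129.7, 106 and 327 CPM against 764, 73.8, 241, 721 and 495 CPM, with F27 the lowest of the 9 and overlap between the ages. Hbb-bs and Hba-a1, the most abundant, had log2 fold changes of 1.40 ± 0.57 (SE, edgeR adjusted p = 0.0669) and 1.54 ± 0.58 (SE, edgeR adjusted p = 0.0503), and the 4 tested of 6 did not pass in edgeR, while Hba-a1 did in DESeq2 (adjusted p = 0.0497, list median 1.32).

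Adipose markers summed to 707, 748, 844 and 576 CPM at 530 d and 928, 906, 1435, 967 and 997 CPM at 640 d. Nearly all of it was Fabp4, also a gene of capillary endothelium and the single member tested of 9, at 0.59 ± 0.16 (SE, edgeR adjusted p = 0.0124), and at an adjusted p of 0.0621 with the pairs summed. F28 was the highest library. Adipoq and Plin1, below the count filter and not tested, did not follow the sum. Adipoq stood at 3.7, 3.67, 1.7 and 0.203 CPM against 0.378, 0.939, 0.163, 0 and 0.547 CPM. Plin1 stood at 3.94, 3.95, 0.814 and 0.406 CPM against 0.324, 0.663, 0.244, 0 and 0 CPM. Both were highest in the near-identical F6 and F7, and the ages overlapped. Of the lists with few members above the count filter, brown adipose had 1 of 2 tested higher and 1 lower (median -0.25), and Schwann and neuronal genes had 1 of 3 higher and 1 lower (median 0.26). Of all genes tested 20.9% were higher and 22% lower (10.9% and 11.7% with the pairs summed), and lists this small give no result beyond that. The single tested skeletal muscle gene was higher (1.15), the single mast cell gene lower (-1.28), and the single mesothelial gene did not pass (-0.51). With the pairs summed the mast cell gene and the brown adipose gene that was lower passed, and the other brown adipose gene, the skeletal muscle gene and the Schwann and neuronal genes did not. T and NK cell, neutrophil, lung epithelium and thymus lists had no member above the filter.

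**Figure D4:**
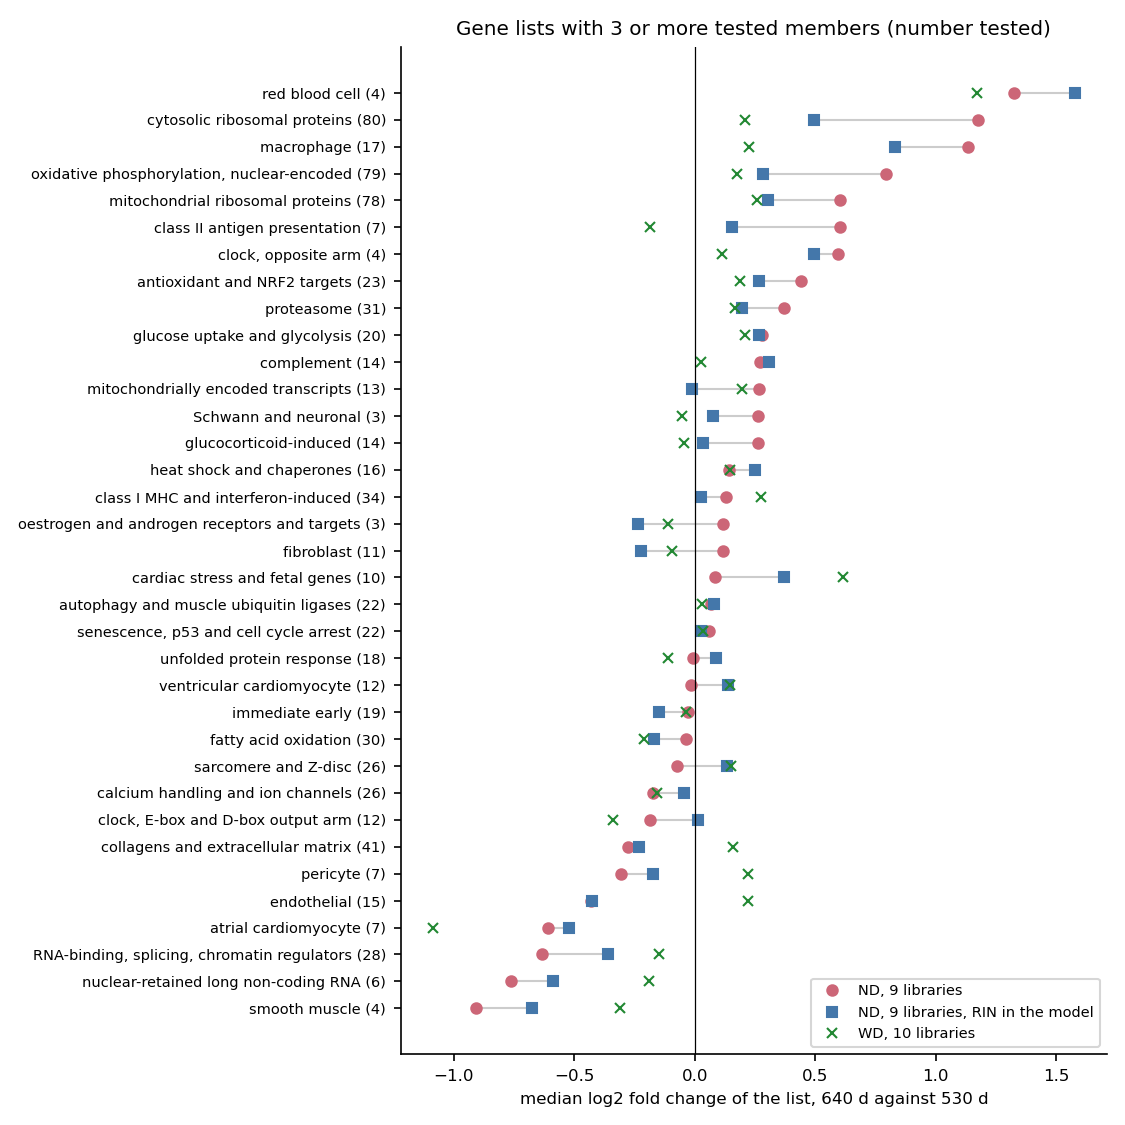
Median log2 fold change at 640 d against 530 d of each gene list with 3 or more tested members, on ND without and with RIN in the model (joined by a line) and on WD. Ribosomal proteins move from 1.17 to 0.50 with RIN, macrophage markers from 1.14 to 0.83, and endothelial markers stay at -0.43, with 0.22 on WD.

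Fold changes went with transcript length. Over 10546 protein-coding genes the Spearman correlation of log2 fold change with the length of the canonical transcript was -0.52 across genes, which are not independent replicates. Among the 2110 genes with the shortest transcripts (348 to 2007 bases) the median log2 fold change was 0.39, with 1140 genes higher and 79 lower. Among the 2109 with the longest (5765 to 123193 bases) the median was -0.25, with 83 higher and 861 lower. The correlation was -0.41 with RIN in the model and -0.38 between the ages on WD, where RIN differed less. The canonical transcript had 612 bases for Atp5mc1 and 1132 for Rpl10a, both higher at 640 d, and 6244 for Myh6, which was lower. Srsf5, also lower, had a short one (1883 bases). The part of transcript length in the list results was not tested.

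**Figure D5:**
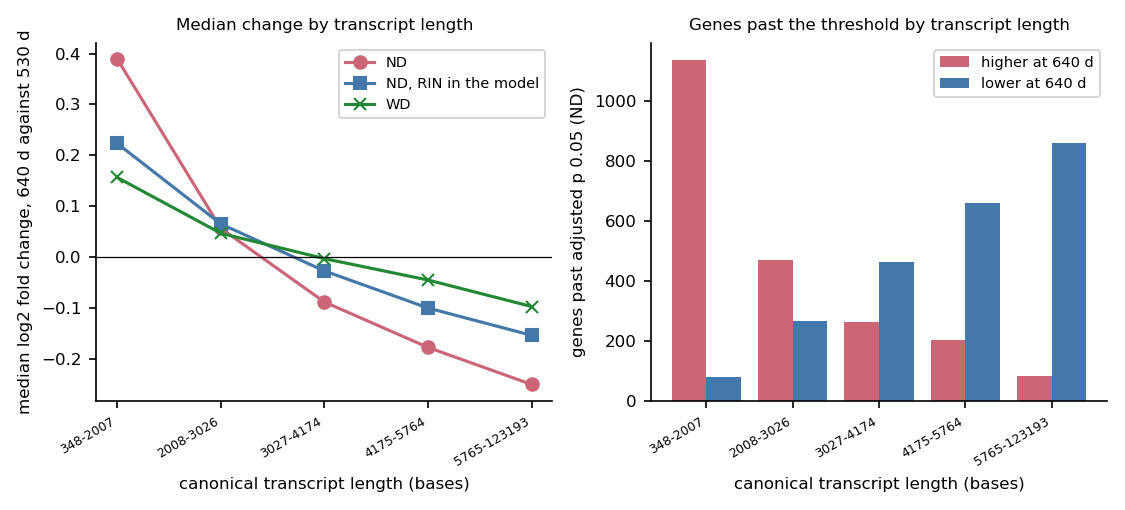
Left, median log2 fold change at 640 d against 530 d by canonical transcript length in 5 bins, on ND without and with RIN in the model and on WD. Right, genes past an adjusted p of 0.05 on ND in each bin, from 1140 higher and 79 lower in the shortest to 83 higher and 861 lower in the longest.

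Genes past the threshold in the 19-library model with RIN were named by their smallest p. Apart from Rn18s-rs5 and Ier3, the increases were Plp2, Yipf3 and Lars2. Plp2, a membrane protein of the endoplasmic reticulum, stood at 20.5, 19.6, 17.3 and 22 CPM in F6 to F9 and 33.8, 29.1, 31.6, 31.5 and 32.2 CPM in F26 to F30. Every 640 d library was higher. Its log2 fold change was 0.67 without RIN and 0.89 in that model (adjusted p = 0.00535). Yipf3, a Golgi protein, stood at 49.4, 50.1, 47.7 and 54.6 CPM against 74.5, 76.9, 80.5, 84.3 and 81.5 CPM, without overlap, at 0.66 and 0.59 (0.00732). Lars2, the mitochondrial leucyl-tRNA synthetase, stood at 307, 321, 382 and 313 CPM against 735, 639, 878, 672 and 636 CPM. Again the ages did not overlap, with 1.11 and 0.96 (0.00814). The decreases were Srsf5 (-0.76, 0.00535), Hnrnpdl, Dll1, Firre (-1.01, 0.00732) and Nfat5. Hnrnpdl, an RNA-binding protein, stood at 110.4, 111, 96.2 and 104 CPM against 70.1, 72, 72.9, 74.6 and 68.8 CPM. Nfat5, the factor of the response to osmotic stress, stood at 47.1, 50, 42.5 and 50.2 CPM against 26.9, 26.7, 23.8, 29.1 and 27.9 CPM. In both genes every 640 d library was lower. Their log2 fold changes in the model with RIN were -0.59 (0.00535) and -0.73 (0.00732). The potassium channel Kcnk1, among the 10 largest increases, stood at 1.91, 2.26, 3.18 and 2.1 CPM against 5.67, 6.19, 8.22, 8.34 and 7.92 CPM without overlap, at 1.62 and 0.91 (0.0409).

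The difference between the ages was set against that in WD females, which share no library with the ND females. RIN on WD was 6.4, 6.9, 7.5, 7.2 and 8.1 at 530 d and 7.7, 6.9, 6.8, 6.2 and 6.5 at 640 d. On WD 884 genes passed, 439 higher and 445 lower. F32, F33 and F35 on WD were also treated as near-identical, and with near-identical libraries summed, a setting added after seeing the data, 3 genes passed on WD in edgeR, all higher, with 1465 at an unadjusted p under 0.05. The test of the difference itself, the diet by age interaction over 19 libraries, passed for 1595 of 10995 genes (14.5%), 601 more positive (5.47%) and 994 more negative (9.04%) on ND. DESeq2 found 2259 (20.6%), 1099 more positive and 1160 more negative, and with its size factors edgeR found 726 and 904. With RIN in the model 34 genes passed, and 4 passed with near-identical libraries summed, with 2503 at an unadjusted p under 0.05. Among them were Col5a3, Dll1 and Dennd3, each with an adjusted p of 0.0466. The count also moved by over 1.5 times when F6 (925), F7 (967), F8 (2873), F9 (599) or F28 (987) was left out on ND, and when F14 (1001) or F34 (2421) was left out on WD.

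Genes among the smallest interaction p are given on the CPM scale of the 19 libraries. Col5a3 stood at 36.7, 34.5, 22.9 and 45.5 CPM at 530 d and 15.5, 10.7, 8.48, 9.73 and 9.21 CPM at 640 d on ND, and at 41.7, 44, 48.4, 40.2 and 35.3 CPM and 69.9, 45.9, 45.7, 42.6 and 43.8 CPM on WD. The older ND libraries were below all others, and the ages overlapped on WD. The log2 interaction was -1.94 (adjusted p = 0.00135), from -1.70 on ND and 0.24 on WD. Dll1, a Notch ligand, stood at 7.72, 7.07, 6.77 and 9.41 CPM and 3.42, 2.6, 2.66, 2.77 and 3.45 CPM on ND and at 7.5, 6.31, 7.47, 7.78 and 6.63 CPM and 7.14, 6.61, 7.73, 5.89 and 7.33 CPM on WD. Again the older ND libraries were below all others. The interaction was -1.33 (adjusted p = 0.00135). Kdr stood at 186, 182, 151 and 195 CPM and 109, 101, 86.7, 97.2 and 92.1 CPM on ND and at 194, 161, 201, 165 and 147 CPM and 249.7, 263, 244, 162 and 257 CPM on WD. It was lower at 640 d on ND and, F34 apart, higher at 640 d on WD. Of those WD libraries F32, F33 and F35 were treated as near-identical, so they do not count as separate support. The interaction was -1.32 (adjusted p = 0.00135, and 0.0827 with near-identical libraries summed), with 0.44 on WD (adjusted p = 0.0325, and 0.341 with near-identical libraries summed). Dennd3, which activates a Rab GTPase, stood at 13.8, 14.8, 13.5 and 17.6 CPM and 8.03, 8.61, 8.22, 12.2 and 8.98 CPM on ND and at 14.8, 15, 15, 14.5 and 14.9 CPM and 20.9, 21, 21.5, 14.9 and 20.1 CPM on WD. It was lower at 640 d on ND and, F34 apart, higher on WD, where F32, F33 and F35 again count as near-identical. The interaction was -1.11 (adjusted p = 0.00402). Their adjusted p with RIN in the interaction model was 0.0262 for Col5a3, Dll1, Kdr and Dennd3.

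Lists differed in the same test. On ND against WD 44 of 80 cytosolic ribosomal proteins (list medians 1.17 and 0.21) and 7 of 17 macrophage markers (1.14 and 0.22) had a more positive difference (5.47% of all genes tested did). A more negative difference on ND was found for 16 of 28 splicing and chromatin regulators (-0.63 and -0.15) and 9 of 15 endothelial markers (-0.43 and 0.22), against 9.04% of all genes tested. With RIN in edgeR's interaction model 3 endothelial markers and 1 splicing and chromatin regulator passed, and 0 ribosomal proteins and macrophage markers. Of all 10995 genes tested 34 did. At an unadjusted p under 0.05 were 13 of 80 ribosomal, 9 of 17 macrophage, 13 of 28 splicing and chromatin and 11 of 15 endothelial genes. Of all 10995 genes tested 1787 were. With near-identical libraries summed 0 members of these 4 lists passed in edgeR. At an unadjusted p under 0.05 were 54 ribosomal, 7 macrophage, 17 splicing and chromatin and 10 endothelial genes. In that setting 2503 of all 10995 genes tested were. DESeq2, run with the libraries apart and without RIN, found 66, 9, 17 and 9 in either direction (20.6% of all genes tested). Rn18s-rs5, by contrast, was higher at 640 d on both diets, by 2.13 on ND and 1.86 on WD (adjusted p = 0.000247, and 0.0302 with near-identical libraries summed, interaction adjusted p = 0.529). Lars2 was higher on both, by 1.11 and 1.59 (WD adjusted p = 2.94e-07, and 0.000241 with near-identical libraries summed). Mean RIN was 7 and 5.2 on ND and 7.22 and 6.82 on WD at 530 d and 640 d, and its part in the interaction was not tested beyond the model with RIN.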

How the data were processed

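The authors' deposited values are raw read counts per gene and library, made before deposit by aligning reads to mm39 and counting with HTSeq over the 3′ ends of genes, and the strand setting is not stated. The submitters' notes name FastQC 0.11.9 and STAR 2.7.8a. Of 56941 genes, the 10995 with more than 20 counts in all 39 sham libraries were tested. Library sizes were normalised by TMM over these genes, and age was tested in edgeR 4.0.16 (limma 3.58.1, R 4.3.3) with Benjamini-Hochberg adjustment over all genes tested. DESeq2 1.42.0 and the other settings are given under the alternatives. The tests were tried on simulated data first.

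The members and gene lists were chosen with earlier results of these data known. Named genes were the 10 largest increases and decreases past the threshold, also with the pairs summed and without overlap between ages (Gm and Rik symbols left out), the 2 most abundant and the 2 of smallest p in each list, the 5 increases and 5 decreases of smallest p in the 19-library model with RIN, since the 9-library model had none, and the 5 of smallest interaction p. Defining markers of cell types were named as well. Values of some named genes, and of named members of lists not described in detail, are not in the text. Positions and lengths are from GENCODE M39 (GRCm39), and sequences from RefSeq. The other 57 library columns were used in no comparison.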

Additional observations from a re-analysis of the deposited data

Results flagged for a closer look

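Within an age, 230 groups of 4 or 5 values were tested for 1 library far from the others (Dixon's ratio above its 95% critical value), and 51 had such a library, where chance gives about 1 in 20. That rate assumes independent libraries and takes no account of the near-identical pairs (F6 and F7, F29 and F30). The values of a library are not independent of each other, and genes of a list move together. Values are CPM unless another unit is given.

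F8 stood above the other 530 d libraries in Rn18s-rs5 as % of counts (0.723, the others 0.408 to 0.435), Rn18s-rs5 (6827, the others 3611 to 4025), Cd52 (8.44, the others 3.76 to 4.46), Rpl3 (262, the others 186 to 194) and Rpl10a (299, the others 177 to 195). In addition, it stood above them in Cox6a1 (152, the others 116 to 121), Fabp3 (5075, the others 3618 to 3718), Eng (246, the others 214 to 219), Rgs5 (418, the others 405 to 407) and Lyz2 (298, the others 156 to 170). It was likewise above them in C1qa (123, the others 71.8 to 75.4), C1qb (101, the others 56.2 to 56.9), C1qc (96, the others 53.6 to 60.6), Ctss (26.7, the others 13.8 to 15.9) and B2m (476, the others 324 to 338). Also above them was its value of Ighm (18.2, the others 11.1 to 12.1), Gpx4 (931, the others 648 to 664) and macrophage markers summed (930.1, the others 536 to 569.9).

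F8 stood below the other 530 d libraries in Meg3 (13.3, the others 17.6 to 18.1), Lpl (3342, the others 4735 to 5019), Cacna1c (168, the others 276 to 277) and atrial cardiomyocyte markers summed (12033, the others 22388 to 24130).

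F9 stood above the other 530 d libraries in Ier3 (55.3, the others 39 to 41.2), Xirp2 (472, the others 272 to 293), Hbb-bs (152, the others 47.6 to 60.9), Hba-a1 (129.9, the others 41.2 to 52.2) and red blood cell markers summed (327, the others 106 to 129.7).

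F9 stood below the other 530 d libraries in C3 (156, the others 240.4 to 251) and Prdx5 (436, the others 464 to 466).

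F6 stood above the other 530 d libraries in total counts (15476026, the others 12749294 to 13161552).

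F28 stood above the other 640 d libraries in Rn18s-rs5 as % of counts (2.42, the others 1.57 to 1.78), Rn18s-rs5 (31262, the others 16344 to 19259), mt-Cytb (55689, the others 42328 to 43757), Fabp3 (10648, the others 5461 to 6524) and Myl2 (20362, the others 10406 to 12995). In addition, it stood above them in Myoz2 (1658, the others 1268 to 1336), B2m (708, the others 559 to 569), Fabp4 (1434, the others 891 to 993) and adipose markers summed (1435, the others 906 to 997).

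F28 stood below the other 640 d libraries in Snrnp70 (25.2, the others 52.4 to 58.9), Leng8 (18.6, the others 51.3 to 59.6), Srsf5 (94.6, the others 119 to 128), Myh6 (4098, the others 7027 to 7929) and Ddx5 (258, the others 309 to 324). F28 was below them in atrial cardiomyocyte markers summed (5041, the others 8040 to 8971).

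F26 stood above the other 640 d libraries in Cd52 (41.7, the others 10.7 to 16.6), Rac2 (57.2, the others 11.4 to 13.9), Clu (544, the others 448 to 475) and Ctss (49.1, the others 21.1 to 25.6).

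F27 stood above the other 640 d libraries in Ier3 (85.2, the others 66.8 to 71.7).

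F29 stood above the other 640 d libraries in Dennd3 (11.7, the others 7.72 to 8.53).

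The diet by age interaction, tested itself in edgeR over 19 libraries, passed an adjusted p of 0.05 for 45 of the 103 genes described. More positive on ND than on WD, on the log2 scale, were Rps27rt 1.45, Rpl39-ps1 1.55, Kcnk1 0.96, Wfdc17 1.19, Ier3 0.60, Yipf3 0.45, Rps2 0.98 and Rplp0 1.17. Others were Rpl3 0.77, Rpl10a 1.15, Mrpl42 1.09, Atp5f1b 0.51, Lyz2 1.04, C1qa 0.82, C1qb 1.12 and C1qc 0.97. Further values were H2-DMa 0.95 and Ighm 0.93. More negative on ND were Myh7b -2.67, Mhrt -1.24, Malat1 -1.65, AI480526 -1.50, Meg3 -1.61, Col5a3 -1.94, Snrnp70 -1.53 and Leng8 -1.49. Others were Srsf5 -0.70, Hnrnpdl -0.35, Dll1 -1.33, Firre -1.10, Nfat5 -0.73, Kdr -1.32, Dennd3 -1.11 and Lpl -0.82. Further values were Myh6 -0.91, Myh7 -2.91, Cacna1c -0.65, Hspg2 -0.83, Lamb1 -0.67, Flt1 -0.83, Smtn -0.79 and Rgs5 -0.51. The rest were Ddx5 -0.43, Ddx17 -0.71 and Neat1 -1.17. With near-identical libraries summed 4 genes passed this test.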

How the results depend on the processing

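The count of 4710 genes was between 4683 and 5164 with DESeq2 (5026), DESeq2's size factors (4683), a robust fit (4697), either other filter (5090 and 4904) or all 19 female libraries in 1 model (5164). Leaving out 1 library gave between 3390 (without F6) and 5070 (without F8). The settings that moved it were RIN in the model (0 in edgeR with 1421 at an unadjusted p under 0.05, and 86 in DESeq2), the 19-library model with RIN (418), the pairs summed (2482), the pairs summed with RIN (0 in edgeR, with 766 at an unadjusted p under 0.05), and the second library of each pair left out (2257). DESeq2 with RIN and leaving out the second library were chosen after seeing the data. The cause of these changes was not tested.

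The interaction count of 1595 was 2259 with DESeq2 and 1630 with its size factors, and moved to 34 with RIN and to 4 with near-identical libraries summed (2503 at an unadjusted p under 0.05). The WD count of 884 moved to 3 with near-identical libraries summed, a setting chosen after seeing the data (1465 at an unadjusted p under 0.05). The interaction count lay between 599 (without F9) and 2873 (without F8), with 925, 967, 987, 1001 and 2421 without F6, F7, F28, F14 and F34. The difference in RIN lay between -2.17 and -1.52 when 1 library was left out, with exact permutation p between 0.0179 and 0.0571. The p was above 0.05 without F6, F27, F28, F29 or F30. With the pairs summed the difference was -1.58 (exact permutation p = 0.0857).

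Of 103 genes described 83 passed the threshold with the 9 libraries. Of the 103, 101 kept direction and side of the threshold with DESeq2's size factors, 92 with the pairs summed, 46 in the 19-library model with RIN and 13 with RIN in the 9-library model, where the 83 no longer passed. Signs reversed in the 19-library model with RIN Atp5f1a -0.0102, mt-Co1 -0.00178, mt-Cytb -0.17, Myl2 -0.0745, Xirp2 0.38, Dcn -0.00628, Col1a1 0.37 and Clu 0.73, with RIN in the model mt-Cytb -0.00944, Xirp2 0.25, Dcn -0.39, Eng -0.00844, Dpep1 -0.0226, Clu 0.40 and C3 -0.0741, with pairs summed and RIN in the model mt-Cytb -0.0809, Xirp2 0.42, Dcn -0.62, Eng -0.0608, Dpep1 -0.30, Clu 0.72, C3 -0.28, H2-Aa -0.00541 and Myl4 1.77. They also reversed without F9 Xirp2 0.12 and Dcn -0.0561, in DESeq2 with RIN Xirp2 0.26, Dcn -0.38, Dpep1 -0.0121, Clu 0.41 and C3 -0.0625. Further reversals came with pairs summed Dcn -0.00559, with the second library of each pair left out Dcn -0.0172, without F8 Aqp1 0.0266 and H2-D1 0.00767 and without F27 Aqp1 0.0919. Leaving out 1 library put Xirp2 between -0.24 and 0.12, Dcn between -0.0561 and 0.25, Aqp1 between -0.19 and 0.0919 and H2-D1 between -0.071 and 0.00767. Myl2, Col1a1 and Myl4 passed with the 9 libraries and no RIN, and the others did not. The cause of the reversals was not tested.

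With the pairs summed Fabp3, Myl2, Slc8a1, Hspg2, Col1a1, Abcc9, Ctss, Prdx5, Fabp4 and Myl4 no longer passed. Leaving out some single libraries took Myl2, Abcc9, Ctss and Myl4 out of the threshold, and the robust fit took out Myl4. In DESeq2 Atp2a2, Atp5f1b, mt-Co1, Dpep1, H2-Aa and Hba-a1 passed, with its size factors Dpep1 and Hba-a1, and without a filter Dpep1, Acta2, H2-Aa, Hbb-bs and Hba-a1, while Abcc9 did not. In the 19-library model without RIN Atp2a2, Dpep1, H2-Aa, Hbb-bs and Hba-a1 passed, and Col1a1 and Myl4 did not. Without F8 Atp2a2, Dpep1, Clu, Cd74 and H2-Aa passed, without F9 or F27 Hbb-bs and Hba-a1, without F28 these and Pln, and without F26 Dpep1 and Acta2.

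No paired analysis was possible because the numbers in the library names are shared between females and males and do not pair animals of different ages. The labels give no extraction or sequencing batch. If the ages were prepared in separate batches, age and batch cannot be told apart in any of these comparisons. With 4 and 5 libraries an age, RIN of the ages overlapping at F8 and F26, and near-identical pairs at both ages, the model with RIN rests on few independent libraries. F29 and F30 had near-identical counts but RIN of 4.1 and 5.6, so RIN did not follow the counts in that pair. This limits every value given with RIN in the model.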
